A study of Mus musculus with 237 samples.

Results

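The genes described here are 10 members of the Notch pathway, measured in single skin cells of the mouse embryo. They comprise 3 receptors (Notch1, Notch2 and Notch3), 3 ligands (Jag1, Jag2 and Dll1) and 4 target genes of the Hes and Hey families (Hes1, Hey1, Hey2 and Heyl). They were picked from a list of symbols by Ensembl identifier, and are 10 of the 55335 genes in the count table.

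The study sequenced 237 cells of C57BL/6N fetuses at E14.5, 66 of wild-type (WT) and 171 of p63 knockout embryos, which had been carried by surrogate ICR mothers. p63, encoded by Trp63, is a transcription factor that stratified epithelia need, and the study knocked it out by CRISPR-Cas9 in zygotes, so each knockout fetus was edited on its own. WT epidermis was lifted off the dermis with dispase before trypsin, whereas for p63 knockout fetuses trypsin alone is named, with no step that parts epidermis from dermis. All cells were sorted as negative for propidium iodide, CD45, TER119 and CD140a, which sets aside dead, blood and Pdgfra-bearing cells. The paper then describes a qPCR screen, of WT cells for Krt5 and of knockout keratinocytes for Krt8, with Pdgfra required not to amplify. Where that screen was applied, Krt5 and Krt8 decided in part which cells were sequenced, and they also enter the states used here. The annotated WT groups are WT-KCB (keratinocytes of the basal layer), WT-KCI (intermediate layer) and WT-KCP (periderm, the transient outermost layer of fetal skin). The sample label of the WT-KCP cells is K17 high, and periderm is the study's manual annotation. The 2 knockout keratinocyte groups, p63 KO-SER and p63 KO-SKH, could not be tied to columns of the table.

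Each column of the count table holds 1 cell, sequenced by SMART-Seq HT, a plate method that copies whole transcripts and carries no molecular identifiers. The columns are named by sequencing run, and 16 of them could be tied to a labelled cell, through a table of runs that was used here in a shortened copy. All 16 come from embryo WT01, as 11 WT-KCB, 4 WT-KCP and 1 WT-KCI cell. For the other 221 columns the sources used here did not give embryo or genotype, so all 237 were grouped by what they express. Levels are given as CPM, counts scaled to a total of 1000000 per column. Suprabasal-like columns held Krt1 and Krt10 at 1000 CPM or more, and basal-like columns held Krt5 and Krt14 at 300 CPM or more with Krt8 under 100 CPM. Simple-keratin columns held Krt8 and Krt18 at 100 CPM or more with Krt5 and Krt14 under 100 CPM, and mesenchymal-like columns held Col1a1 and Col3a1 at 100 CPM or more. This gave 8 suprabasal-like, 52 basal-like, 66 simple-keratin and 78 mesenchymal-like columns, and left 33 with no state. All 11 WT-KCB and all 4 WT-KCP cells were basal-like, and the WT-KCI cell was suprabasal-like. The sample labels also name 70 p63 KO fibroblasts, all of 1 knockout embryo, and these could not be tied to columns either. How many of the 78 mesenchymal-like columns they make up is not known here, so that state may rest mostly on 1 embryo. Columns are cells and not replicates, and the table is 1 pooled sample, so no test was made. Genotype, embryo and state cannot be told apart.

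Total counts lay between 2701500 and 19197138 per column (median 6938031), with 6951 to 13204 genes counted. The marker lists include the genes that set the states, and they overlapped between the keratin states. Of 7 basal keratinocyte markers, 7 reached 10 CPM in the summed basal-like, 5 in suprabasal-like and 4 in simple-keratin columns. Of 7 suprabasal markers, 7 did in suprabasal-like, 5 in basal-like and 2 in simple-keratin columns. Of 9 mesenchymal markers, among them Col1a1 and Col3a1, all 9 reached 10 CPM in the summed mesenchymal-like columns. In the summed suprabasal-like and basal-like ones 0 of the 9 did. In the simple-keratin columns 3 of the 9 did, and the 9 together came to 0.163 to 5761 CPM per column (median 221), and none of the 9 was at 0 in the sum. Krt5 and Krt14 had 0 counts in all 78 mesenchymal-like columns. Trp63 was at 565 CPM in the summed basal-like columns, 145 CPM in suprabasal-like, 197 CPM in simple-keratin and 1.01 CPM in mesenchymal-like ones, and in the 16 labelled WT cells it ran from 273 to 1176 CPM. The other columns have no genotype label here that it could check. Pdgfra, which encodes CD140a, reached 10 CPM in 66 of 78 mesenchymal-like columns in spite of the sort. Krt8 reached 10 CPM in 0 of them, so the qPCR screen as described does not hold for these columns. A total of 3 columns met the limits of 2 states, 2 of them suprabasal-like and basal-like, and doublets were not called. A further 5 columns stood apart, with a total over 10 times the median relative to their size factor, and 3 of them were simple-keratin and 2 had no state. In 4 of them CT010467.1, a gene model that collects rRNA reads, held 20.6% to 31.6% of counts against a median of 1.63% elsewhere, and in the other one 72.5% of counts came from haemoglobin genes.

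Notch receptors are single-pass membrane proteins that are cut when a Jagged or Delta-like ligand on a neighbouring cell pulls on them. The freed intracellular domain enters the nucleus and joins the DNA-binding protein Rbpj and a Mastermind coactivator, and the Hes and Hey genes, which encode repressors of transcription, are among its direct targets. In the epidermis the pathway is known for promoting the spinous fate as keratinocytes leave the basal layer, and in vessels Notch3 is known from mural cells.

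Promoter windows of the members were read from RefSeq (GRCm38.p6), each 300 bases long with 250 before and 50 after the annotated start. A window was found for 7 of the 10 members, and not for Hes1, Hey1 and Heyl. Both strands were searched for TGGGAA, the core of the site bound by Rbpj, whose reverse complement is TTCCCA. The letters occurred in 1 of the 7 members, Hey2, and there on both strands. TTCCCA started 207 bases and TGGGAA 3 bases before the RefSeq start of the window. That RefSeq start lies 18 bases from the start of Hey2 in GENCODE, the source of the gene positions given below. Among all 32851 windows 25.6% held the letters on either strand and 1.81% on both. Of 30 other pathway genes with a window 12 held them in at least 1 window. This counts genes, some of which have several windows, and is not on the scale of the share of windows. The Hey2 window is shown with the 6-base matches in capitals. The windows of Dll1 and Notch3 follow, as the ligand and the receptor with opposite levels in the keratinocyte states, and neither holds the letters. A match is a description of these letters only. All 3 are on the minus strand and are written 5′ to 3′ in the direction of the gene, at chr10:30842734-30843033 (Hey2), chr17:15376883-15377182 (Dll1) and chr17:32166841-32167140 (Notch3).
Hey2: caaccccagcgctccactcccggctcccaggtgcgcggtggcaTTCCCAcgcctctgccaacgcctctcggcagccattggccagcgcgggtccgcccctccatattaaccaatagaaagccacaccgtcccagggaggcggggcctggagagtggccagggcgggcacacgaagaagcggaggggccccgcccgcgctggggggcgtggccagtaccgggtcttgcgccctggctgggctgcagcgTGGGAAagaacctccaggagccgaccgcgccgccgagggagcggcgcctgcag
Dll1: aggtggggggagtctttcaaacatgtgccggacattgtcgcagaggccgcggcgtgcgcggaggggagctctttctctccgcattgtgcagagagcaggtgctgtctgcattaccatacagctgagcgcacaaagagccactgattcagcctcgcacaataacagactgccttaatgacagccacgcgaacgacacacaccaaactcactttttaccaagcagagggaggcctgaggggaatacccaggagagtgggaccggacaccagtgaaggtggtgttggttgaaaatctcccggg
Notch3: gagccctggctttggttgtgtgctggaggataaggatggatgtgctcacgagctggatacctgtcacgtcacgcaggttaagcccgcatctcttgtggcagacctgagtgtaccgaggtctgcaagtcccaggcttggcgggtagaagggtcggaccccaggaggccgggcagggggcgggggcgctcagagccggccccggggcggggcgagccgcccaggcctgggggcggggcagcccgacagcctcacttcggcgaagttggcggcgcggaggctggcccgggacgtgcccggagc

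Levels are CPM of the summed counts of a group with an exact 95% Poisson interval, which covers counting error only, since amplified reads without identifiers are not independent molecules. A member was called present in a column at 10 CPM or more. Ratios are differences of log2(CPM + 1), computed for genes at 1 CPM or more in either group, and a gene was called at 4-fold or more (log2 of 2). Genes differ in length, and so their levels were compared with each other as CPM per kilobase of exon. The 10 CPM limit of presence is not scaled for length. Shares of columns of different genes are therefore not on the same scale.

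The labelled WT01 cells showed 3 members higher and 3 lower in the WT-KCI cell than in WT-KCB, and a single one lower in WT-KCP. Against WT-KCB, the WT-KCI cell had more Notch2, Notch3 and Jag1, and less Jag2, Dll1 and Hes1. Those are 6 calls among 7 members tested, where 37.9% of all 14792 genes tested were called (7.23% higher, 30.7% lower). This is 1 cell, and a single cell differs from a sum of 11 in many genes. In WT-KCP, Notch2 was the call among 6 members tested, against 15.4% of 15387 genes (6.23% higher, 9.17% lower). No member was free of overlap between the WT-KCP and WT-KCB cells, where 0.344% of genes were. Hey1, Hey2 and Heyl had 0 counts in all 16 cells, where 3 counts would be 0.0342 CPM in the summed WT-KCB cells. The median log2 ratio was 0.77 over the 7 members in WT-KCI against -0.83 over all genes, and -0.47 over the 6 members in WT-KCP against -0.06.

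**Figure D1:**
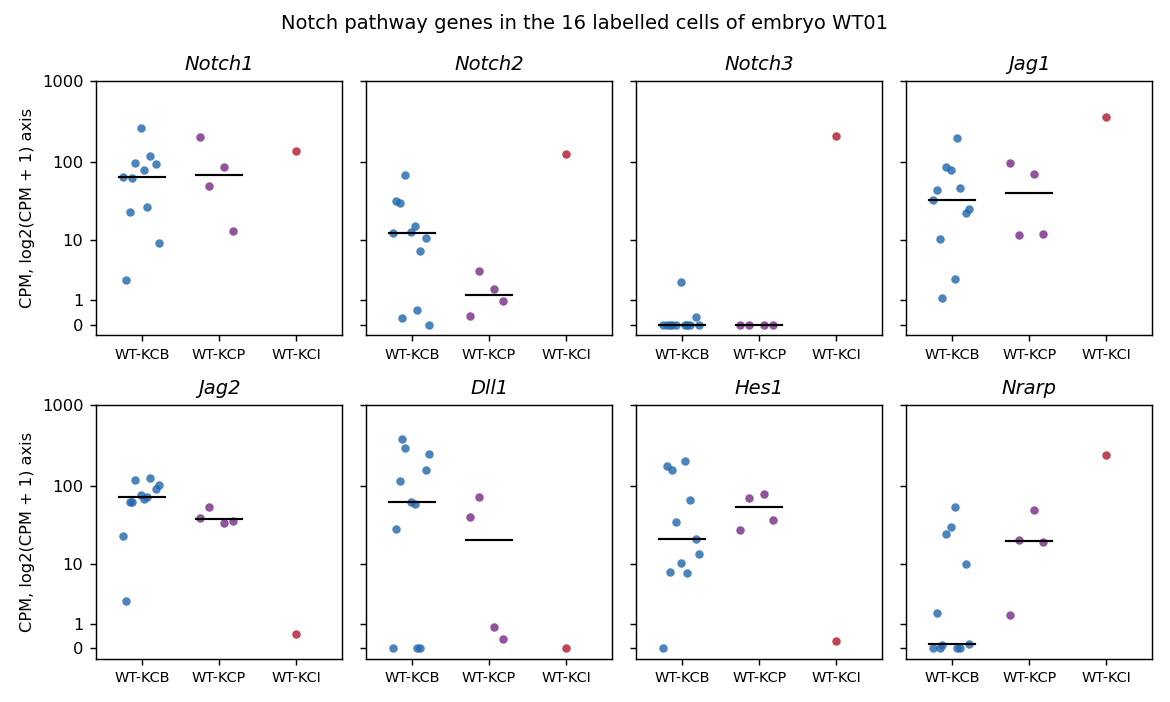
CPM of 7 members and Nrarp in each of the 16 labelled cells of embryo WT01, on a log2(CPM + 1) axis, with a line at the median of WT-KCB (11 cells) and of WT-KCP (4 cells). The WT-KCI cell stands above all 11 WT-KCB cells for Notch2, Notch3, Jag1 and Nrarp and below all 11 for Jag2.

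Notch1 (chromosome 2, 26457903 to 26516663, minus strand, GRCm38) is the receptor most studied in keratinocytes. It was at 2.56 to 262 CPM in the WT-KCB cells (median 65.2). The 4 WT-KCP cells held 13.2, 50.6, 86.8 and 203 CPM, and the WT-KCI cell held 135 CPM. The 3 groups overlapped, and 1 of 11 WT-KCB cells exceeded the WT-KCI cell. The summed level was 78.8 CPM (76.9 to 80.6) in WT-KCB and 86.9 CPM (83.6 to 90.4) in WT-KCP, a log2 ratio of 0.14. Exons of 2 genes on the opposite strand overlap 1482 bases of Notch1, and 36.2% of its values above 0 carry a fraction. The sources used here do not state whether the counting used strand.

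Across states, Notch1 was highest in the suprabasal-like columns. The summed level there was 264 CPM (260 to 269), with 32.5 CPM in the lowest of the 8 columns, a median of 300.2 and 685 CPM in the highest. Basal-like columns had 167 CPM (166 to 168), with a range of 1.78 to 1151 and a median of 95.3 CPM. The difference between these neighbours, 0.66 on the log2 scale, lay within the overlap of the columns, since 42 of 52 basal-like columns exceeded the lowest suprabasal-like one. Mesenchymal-like columns had 42.6 CPM (42.1 to 43.2) and simple-keratin columns 40.1 CPM (39.6 to 40.7), and the medians were 6.85 and 0.33 CPM. Notch1 was present in 8 of 8 suprabasal-like, 47 of 52 basal-like (90.4%, exact 95% interval 79.0% to 96.8%), 36 of 78 mesenchymal-like (46.2%, 34.8% to 57.8%) and 16 of 66 simple-keratin columns (24.2%, 14.54% to 36.4%). A single simple-keratin column held 23.6% of that state's Notch1 counts.

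Notch2 (chromosome 3, 98013527 to 98150361, plus strand) was lowest in the summed basal-like columns. The WT-KCB cells held 0 to 68.8 CPM with a median of 12.4. The WT-KCP cells held 0.292, 0.946, 1.71 and 3.56 CPM, all under 8 of the 11 WT-KCB cells, while the other 3 WT-KCB cells lay among or under the WT-KCP values. The WT-KCI cell, at 126 CPM (118 to 134), exceeded all 11 WT-KCB cells. The log2 ratio to WT-KCB was -2.69 in WT-KCP and 2.82 in WT-KCI.

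By state, the summed Notch2 level was 68.7 CPM (67.97 to 69.5) in mesenchymal-like, 64.99 CPM (62.999 to 67.02) in suprabasal-like, 34.1 CPM (33.6 to 34.6) in simple-keratin and 15.9 CPM (15.5 to 16.3) in basal-like columns. The 8 suprabasal-like columns split in their values, with 4 at 0.17, 0.47, 1.03 and 5.37 CPM and 4 between 102 and 184 CPM. The medians over columns were 46.9 CPM in mesenchymal-like and 0.47 to 0.74 CPM in basal-like and simple-keratin columns. Notch2 was present in 75.6% of mesenchymal-like columns (64.6% to 84.7%) and in 30.8% of basal-like ones (18.7% to 45.1%). An exon of Gm42820 shares 541 bases and the strand with Notch2, so reads there cannot be told apart.

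Notch3 (chromosome 17, 32120820 to 32166852, minus strand) was at or near 0 in most basal-like columns and was found in the other 3 states. In WT-KCB, 9 of 11 cells had 0 counts and the other cells 0.237 and 2.32 CPM. All 4 WT-KCP cells had 0 counts. The WT-KCI cell held 212 CPM (202 to 222), a log2 ratio of 7.41 to WT-KCB. The 8 suprabasal-like columns held 13.1, 74.4, 131, 137, 150.4, 206, 212 and 271 CPM, all of them above the basal-like median of 0. Only 4 of the 52 basal-like columns exceeded the lowest of the 8, although the ranges overlapped, with a highest basal-like column of 157 CPM. The summed level was 139 CPM (136 to 142) in suprabasal-like against 5.47 CPM (5.26 to 5.69) in basal-like columns.

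Simple-keratin columns were close to the suprabasal-like ones in summed Notch3, at 109 CPM (109 to 110), with a median of 60.8 CPM and a highest column of 556 CPM. Notch3 was present in 53 of 66 of them (80.3%, 68.7% to 89.1%) and in 5 of 52 basal-like columns (9.62%, 3.20% to 21.03%). Mesenchymal-like columns held 40.4 CPM (39.8 to 40.99) with a median of 10.9 CPM, and 39 of 78 had the gene. In those columns the level ran from 0 to 368 CPM. Without the 4 simple-keratin columns that also held Col1a1 or Lum at 100 CPM or more, the log2 ratio to basal-like columns went from 4.09 to 4.15, and without the columns that stood apart it was 4.17. Gm17276, on the opposite strand, overlaps 488 exon bases of Notch3.

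Per kilobase, the leading receptor differed between states. In the summed basal-like columns Notch1 was at 11.7 CPM per kilobase, Notch2 at 1.48 and Notch3 at 0.676. In the simple-keratin columns Notch3 led at 13.5 CPM per kilobase, ahead of Notch2 at 3.16 and Notch1 at 2.82. Suprabasal-like columns held Notch1 at 18.6 and Notch3 at 17.1 CPM per kilobase, with Notch2 at 6.03. Mesenchymal-like columns held Notch2 at 6.37, Notch3 at 4.996 and Notch1 at 2.997 CPM per kilobase.

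**Figure D2:**
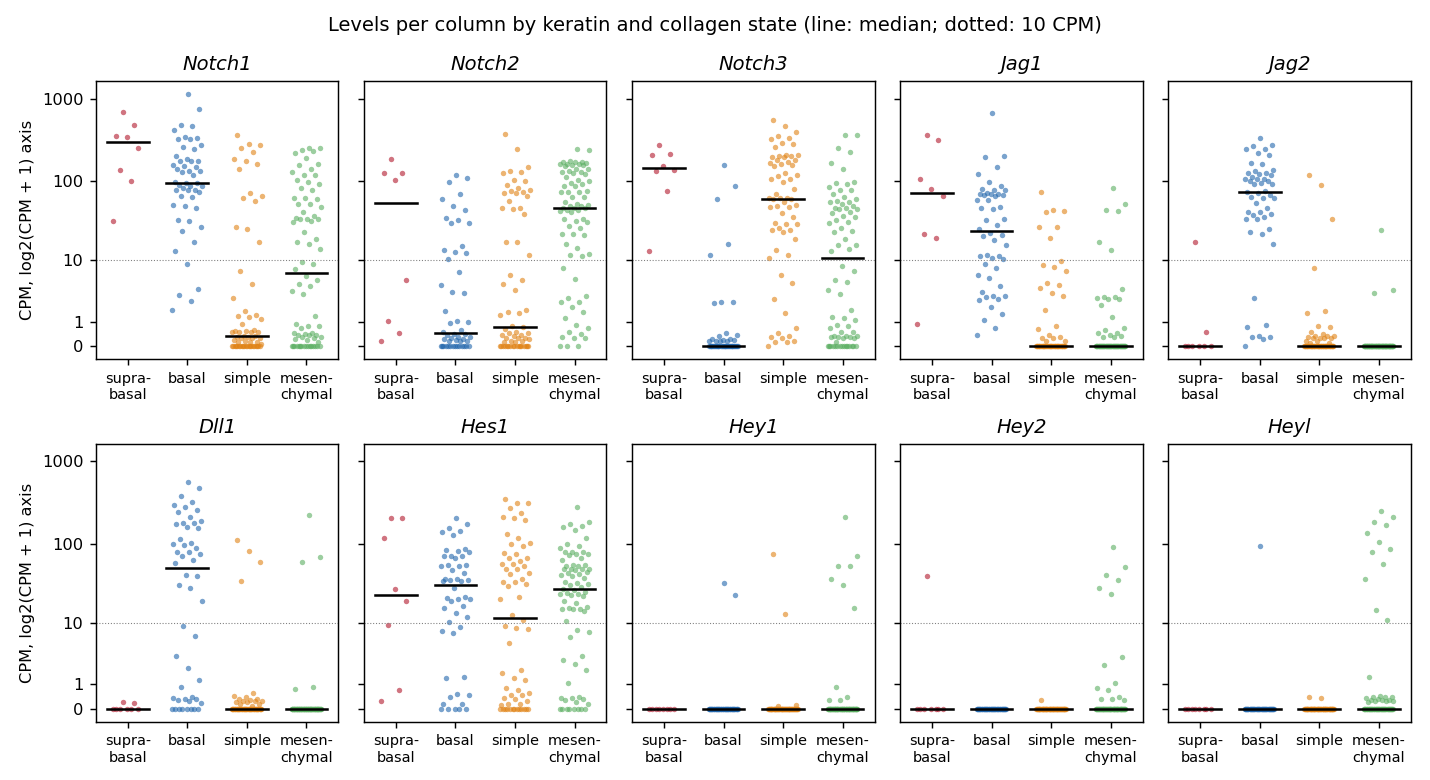
CPM of the 10 members in every column of the 4 states, on a log2(CPM + 1) axis, with a line at the median and a dotted line at 10 CPM. Notch3 has a median of 0 in the basal-like columns, while Jag2 and Dll1 have medians of 0 in every other state.

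The ligands were the genes of the basal-like columns, with Jag1 also in the suprabasal-like ones. Jag1 (chromosome 2, 137081456 to 137116644, minus strand), whose product is one of the Jagged ligands, was at 1.11 to 197 CPM in the WT-KCB cells (median 33.4). The WT-KCP cells held 11.6, 11.98, 70.1 and 96.98 CPM, inside that range. The WT-KCI cell held 361 CPM (348 to 374), above all 11 WT-KCB cells, with a log2 ratio of 2.83. The suprabasal-like columns reached 117 CPM (115 to 120) against 53.1 CPM (52.4 to 53.8) in the basal-like ones, but their values, 0.859 to 361 CPM, lay within the basal-like range of 0.369 to 668 CPM. In simple-keratin columns Jag1 was at 4.33 CPM (4.16 to 4.51) and in mesenchymal-like ones at 3.24 CPM (3.08 to 3.41), with medians of 0. Without the WT01 cells the suprabasal-like against basal-like log2 ratio went from 1.13 to 0.55.

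Jag2 (chromosome 12, 112907819 to 112929776, minus strand), the other Jagged ligand, was a basal-like gene. All 11 WT-KCB cells had it, at 2.85 to 123 CPM with a median of 72.0. The WT-KCP cells held 33.9, 35.9, 39.7 and 54.3 CPM, below most WT-KCB cells but within their range, a log2 ratio of -0.78. The WT-KCI cell had 0.485 CPM (0.132 to 1.24), under all 11. Among the suprabasal-like columns 6 of 8 had 0 counts, the WT-KCI cell 0.485 and 1 column 17.4 CPM, and 43 of 52 basal-like columns lay above all 8. The summed level was 93.3 CPM (92.4 to 94.2) in basal-like, 4.36 CPM (4.19 to 4.53) in simple-keratin, 1.83 CPM (1.51 to 2.20) in suprabasal-like and 0.369 CPM (0.316 to 0.428) in mesenchymal-like columns. Single columns carried most of the last 3 values, with 60.5% of the simple-keratin, 96.5% of the suprabasal-like and 74.7% of the mesenchymal-like counts.

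Dll1 (chromosome 17, 15367354 to 15376872, minus strand), a Delta-like ligand, was present in the smallest share of basal-like columns among the 3 ligands. Of the 11 WT-KCB cells 3 had 0 counts, and the others ran from 28.2 to 378 CPM. The WT-KCP cells held 0.315, 0.855, 39.96 and 71.2 CPM, and the log2 ratio of -1.95 to WT-KCB fell short of the 4-fold limit. Leaving out 1 of the 15 cells at a time carried it past that limit for 8 of them, with values of -3.08 to -2.02. The WT-KCI cell had 0 counts, as did those 3 WT-KCB cells. By the limit of 3 counts it was at least 344-fold under the summed WT-KCB level, which covers counting only and not the spread between cells. In the 8 suprabasal-like columns 4 counts were found in all, or 0.0642 CPM (0.0175 to 0.164). Basal-like columns held 105 CPM (104 to 106), with a median of 49.8 and 31 of 52 columns at 10 CPM or more (59.6%, 45.1% to 73.0%). Simple-keratin columns were at 3.53 CPM (3.38 to 3.69) and mesenchymal-like ones at 3.95 CPM (3.77 to 4.14), with 4 of 66 and 3 of 78 columns positive. A930024N18Rik, on the opposite strand, overlaps 867 exon bases of Dll1.

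Per kilobase, Dll1 was the highest ligand of the summed basal-like columns at 24.9 CPM, followed by Jag2 at 13.4 and Jag1 at 9.11. In the suprabasal-like columns Jag1 stood at 20.1 CPM per kilobase, with Jag2 at 0.263 and Dll1 at 0.0152.

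**Figure D3:**
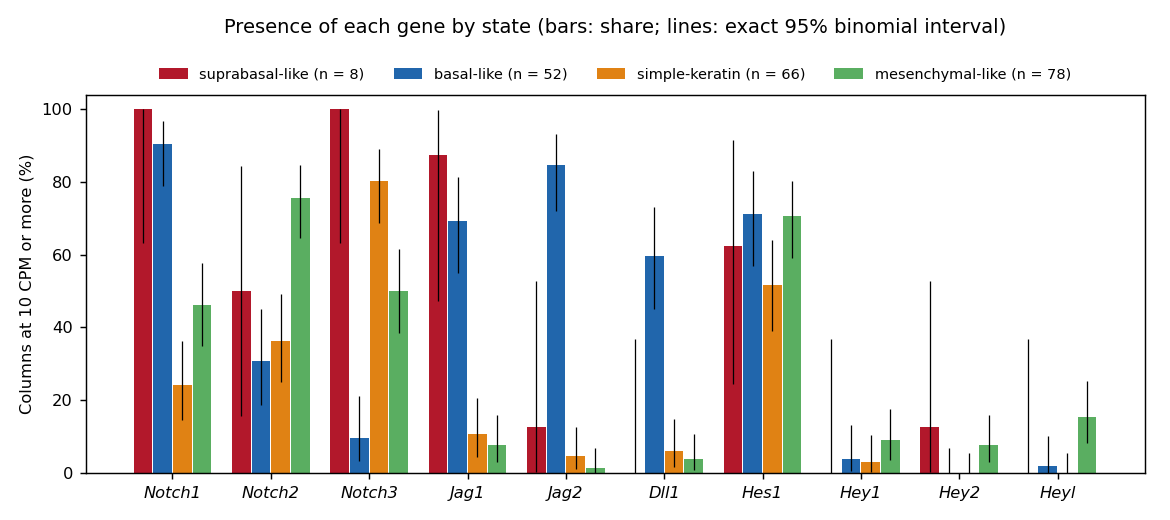
Share of columns with each member at 10 CPM or more in the 4 states, as bars with exact 95% binomial intervals that cover counting error only. Jag2 and Dll1 were present in 84.6% and 59.6% of basal-like columns, against 12.5% and 0% of suprabasal-like, 4.55% and 6.06% of simple-keratin and 1.28% and 3.85% of mesenchymal-like ones.

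Of the targets, Hes1 was found in all 4 states, whereas the Hey genes were in few columns. Hes1 (chromosome 16, 30064384 to 30067796, plus strand) differed by less than 4-fold between any 2 of the states compared. The WT-KCB cells held 0 to 203 CPM with a median of 20.999, and the WT-KCP cells 27.999, 36.9, 71.0 and 79.0 CPM. The WT-KCI cell held 0.243 CPM (0.0294 to 0.876), under 10 of the 11 WT-KCB cells. That cell had high Notch3 and Jag1. The other 7 suprabasal-like columns held 0.687, 9.36, 19.6, 27.1, 118, 205.9 and 205.9 CPM, so that 1 of them was nearly as low and 3 of the 8 were under 10 CPM. The summed levels were 68.1 CPM (66.05 to 70.2) in suprabasal-like, 57.01 CPM (56.4 to 57.6) in simple-keratin, 41.9 CPM (41.3 to 42.5) in mesenchymal-like and 41.2 CPM (40.6 to 41.8) in basal-like columns. The medians, 23.4, 11.9, 27.2 and 31.1 CPM, had another order. The suprabasal-like ratio to basal-like columns was 0.71, and -0.61 when the columns that met both states were left out.

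Hey1 (chromosome 3, 8663359 to 8667256, minus strand) had counts in 20 of all 237 columns, Hey2 (chromosome 10, 30832359 to 30842801, minus strand) in 17, and Heyl (chromosome 4, 123233556 to 123249875, plus strand) in 36. All 3 encode Hairy-related repressors and had their highest summed level among the 4 states in the mesenchymal-like columns. Heyl was at 17.5 CPM (17.2 to 17.9) in mesenchymal-like columns, with 12 of 78 at 10 CPM or more (15.4%, 8.21% to 25.3%) and a highest column of 253 CPM. It was at 1.33 CPM in basal-like columns, where all its counts came from 1 column at 92.7 CPM, and 4 counts were found in the 66 simple-keratin columns. Hey1 was at 6.03 CPM (5.82 to 6.26) in mesenchymal-like and 1.08 CPM (0.986 to 1.18) in basal-like columns, with 40.7% of the mesenchymal-like counts in 1 column. Hey2 was at 4.18 CPM (3.996 to 4.37) in mesenchymal-like columns and had 0 counts in the 52 basal-like ones, at least 624-fold lower. The Hey2 level of 4.04 CPM in the suprabasal-like columns came from 1 column at 39.8 CPM.

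Set against basal-like columns, Jag2 and Dll1 were called lower and Notch3 higher in each of the other 3 states. In suprabasal-like columns Notch3 (4.43 on the log2 scale) and Hey2 (2.33) were called higher and Jag2 (-5.06) and Dll1 (-6.64) lower. These are 4 calls among 10 members tested, against 16.8% of 15533 genes (4.39% higher, 12.4% lower), and the Hey2 call ended without its 1 column, when the ratio was 0.00. Notch2 at 1.96 fell just short, and passed the limit when any of 12 single columns was left out (2.002 to 2.257).

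In simple-keratin columns Notch3 was called higher (4.09), and Notch1 (-2.03), Jag1 (-3.34), Jag2 (-4.14) and Dll1 (-4.55) lower. These are 5 calls among 9 members tested, against 9.53% of 16682 genes (6.15% higher, 3.38% lower). The median over the 9 was -1.21, against 0.04 over all genes. The Notch1 call stood at its limit. It was lost with the state limits doubled (-1.44), with size factors (-1.985), without the columns that stood apart (-1.95), without the one rich in haemoglobin (-1.99), without those with Col1a1 or Lum (-1.94), and when any of 14 of 118 single columns was left out (-1.999 to -1.878). The 3 ligand calls were kept under every alternative tried.

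In mesenchymal-like columns Notch2 (2.04), Notch3 (2.68), Hey2 (2.37) and Heyl (2.99) were called higher and Jag1 (-3.67), Jag2 (-6.11) and Dll1 (-4.42) lower. These are 7 calls among 10 members tested, against 14.7% of 16815 genes (8.97% higher, 5.7% lower). The Notch2 call was lost when either of 2 columns was left out (1.979 to 1.995), without the WT01 cells (1.96) and with the marker limits halved (1.97), and the Hey2 call when 1 column was (1.90). Notch1 (-1.946) and Hey1 (1.758) passed the limit when any of 6 and of 2 single columns was left out. Between simple-keratin and mesenchymal-like columns, Hey2 (-2.37) and Heyl (-4.20) were called lower in simple-keratin columns among 10 tested, against 16.8% of 17268 genes (8.68% higher, 8.17% lower). The Hey2 call there was lost without 1 column (-1.89). Hey1 (-1.992) and Jag2 (1.968) were just under the limit, and passed it when any of 72 and of 7 of the 144 single columns was left out (-2.692 to -2.002, and 2.003 to 2.291). No member was free of overlap between the columns of these states. Of all genes, 0.0901% were for suprabasal-like, 0.03% for simple-keratin and 0.339% for mesenchymal-like against basal-like columns, and 0.0521% for simple-keratin against mesenchymal-like ones. The comparisons against basal-like columns share those columns.

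**Figure D4:**
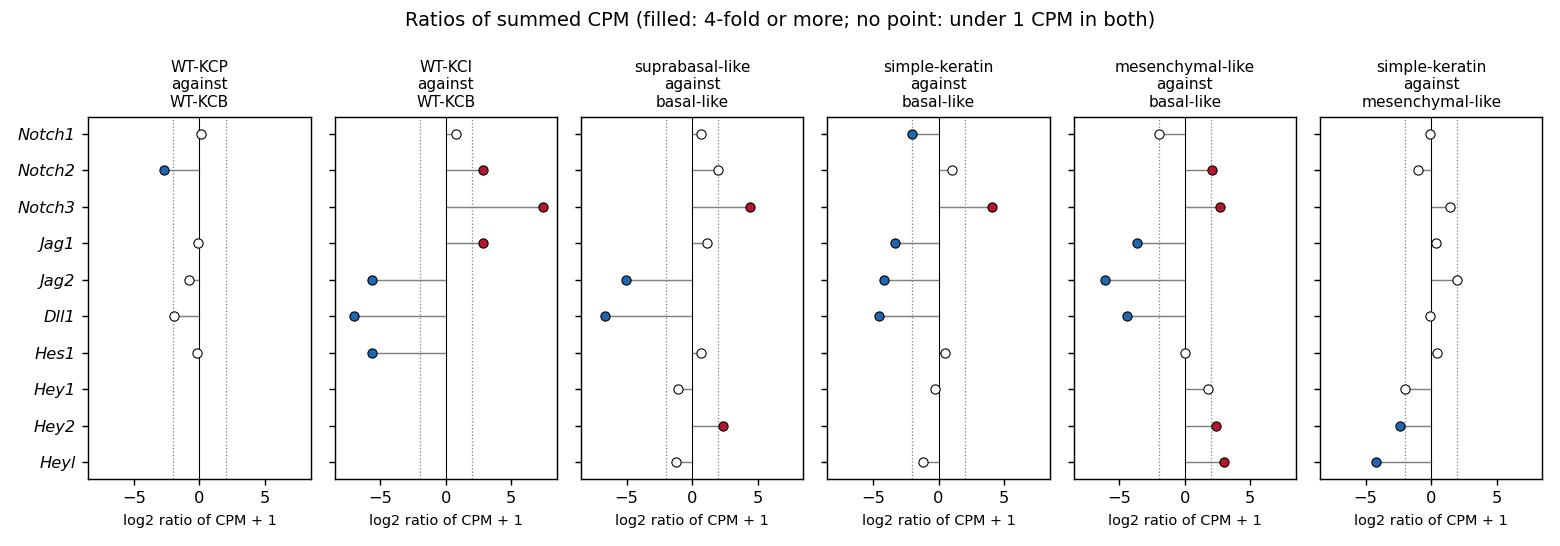
Log2 ratio of summed CPM + 1 for each member in the 6 comparisons, with filled points at 4-fold or more (dotted lines) and no point where a member was under 1 CPM in both groups. Jag2 and Dll1 lie left of the limit in the WT-KCI, suprabasal-like, simple-keratin and mesenchymal-like panels, and Notch3 lies right of it in the same 4.

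The rest of the pathway, a list of 37 genes, mostly stayed within 4-fold. Nrarp, a Notch target whose product feeds back on the Notch complex, was the further target called in keratinocytes. It was at 100.04 CPM (97.6 to 103) in suprabasal-like and 12.3 CPM (12.004 to 12.7) in basal-like columns, a log2 ratio of 2.92. The 8 suprabasal-like columns held 0, 29.9, 44.1, 46.7, 50.1, 115, 222 and 241 CPM, and the last of these was the WT-KCI cell. The WT-KCB cells ran from 0 to 53.96 CPM (4 at 0), and the WT-KCP cells held 1.604, 19.5, 20.6 and 49.2 CPM. In mesenchymal-like columns Nrarp was at 1.25 CPM (log2 ratio to basal-like columns -2.56) and in simple-keratin columns at 2.602 CPM. In the suprabasal-like columns it was the 1 of 31 other pathway genes tested that was called higher, with 6 called lower, against 4.39% and 12.4% of all genes.

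The 6 lower genes were 2 of 5 in Fringe and glycosylation, 2 of 7 in the nuclear complex and 2 of 10 in endocytosis and turnover. Rbpj, the DNA-binding partner of the Notch intracellular domain, was at 2.37 CPM (2.01 to 2.79) in suprabasal-like and 20.5 CPM (20.1 to 20.9) in basal-like columns (log2 ratio -2.67). Lfng is a Fringe enzyme that adds sugar to Notch and changes its choice of ligand. It was at 7.98 CPM in the summed basal-like columns, under the 10 CPM used for presence, and had 0 counts in the suprabasal-like ones. By the limit of 3 counts, which covers counting only, that is at least 166-fold lower. All 11 WT-KCB cells had some counts of Lfng, at any level, and the WT-KCI cell had 0. The others were Mfng, another Fringe enzyme (-2.60), the coactivator Maml1 (-2.05), the ubiquitin ligase Neurl1a, which acts on ligands (-2.23), and the Deltex family member Dtx3 (-3.10). The median over the 31 was -0.45, against -0.34 over all genes.

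In the WT-KCI cell 2 of 28 other pathway genes were called higher and 9 lower, close to the 7.23% and 30.7% of all genes, so the counts show nothing particular to the pathway. The higher ones were Nrarp (4.35) and Numb (2.01), an adaptor that restrains Notch, and the lower ones included the coactivator Maml2 (-4.86), Rfng (-4.13), the corepressor Ctbp1 (-2.87) and Rbpj (-2.79). In WT-KCP, Neurl1b (4.04) and Neurl1a (2.09) were called higher and the presenilin Psen2 (-2.92) lower, of 30 tested, against 6.23% and 9.17% of all genes. In simple-keratin columns Mfng (-2.60) and Neurl1a (-2.07) were lower of 34 tested and 0 higher, against 3.38% and 6.15% of all genes. In mesenchymal-like columns Dtx4 (4.01), Numbl (2.54) and Dtx1 (2.24) were higher, and Maml3 (-3.23), Nrarp and Lfng (-2.26) lower, of 32 tested, against 8.97% and 5.7% of all genes. Between simple-keratin and mesenchymal-like columns 1 of 34 was higher, Maml3 (3.04), and 4 were lower, namely Neurl1a (-3.59), Mfng (-2.49), Dtx4 (-2.42) and Neurl1b (-2.41), against 8.68% and 8.17% of all genes. The proteases that cut Notch gave 1 call of 7 in WT-KCP and in WT-KCI, Psen2 both times, and 0 in the comparisons of states. The other ligands and receptors were sparse, with Notch4 at 1.197 CPM, Dll3 at 0.543 CPM and Dll4 at 0.00992 CPM over all columns, and Hes5 present in 2 of 237.

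Ligand and receptor were found in the same columns mainly in the basal-like and suprabasal-like states. At least 1 of the 3 ligands was present in 51 of 52 basal-like columns (98.1%, 89.7% to 99.95%) and 7 of 8 suprabasal-like columns, against 14 of 66 simple-keratin (21.2%, 12.1% to 33.02%) and 10 of 78 mesenchymal-like columns (12.8%, 6.32% to 22.3%). At least 1 receptor was present in 92.3%, 100%, 84.8% and 92.3% of the same groups. A receptor without any of the 3 ligands was thus seen in 1.92% of basal-like, 12.5% of suprabasal-like, 63.6% of simple-keratin and 79.5% of mesenchymal-like columns. In the basal-like state 40 of 52 columns held Notch1 with Jag2, 17 held all 3 ligands, and 2 held all 3 receptors. At 10 CPM 0 simple-keratin and 0 mesenchymal-like columns held a pair of ligands, against 43 of 52 basal-like ones, and at 1 CPM 1, 1 and 47 did. The columns with any ligand rose with that lower limit to 26 of 66 simple-keratin (39.4%), 19 of 78 mesenchymal-like (24.4%) and 52 of 52 basal-like columns. Of the 14 and 10 with a ligand at 10 CPM, 7 and 6 had Jag1, 3 and 1 Jag2, and 4 and 3 Dll1.

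**Figure D5:**
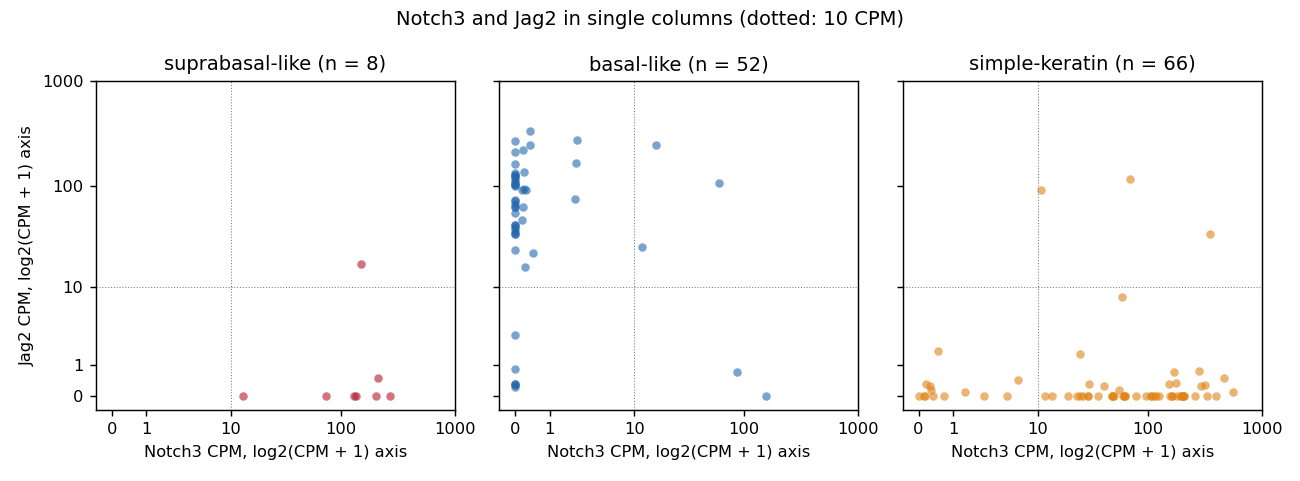
Notch3 (x axis) against Jag2 (y axis) in each suprabasal-like, basal-like and simple-keratin column, both on log2(CPM + 1) axes, with dotted lines at 10 CPM. Both were at 10 CPM or more in 1 of 8, 3 of 52 and 3 of 66 columns.

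Within the basal-like columns, 5 held Notch3 at 10 CPM or more. They are described with the other 47 beside them. Their median Notch1 was 418 CPM, against 89.1 CPM in the other 47. Nrarp was present in 4 of 5 and in 14 of 47, and Dll1 in 1 of 5 and in 30 of 47. Lfng was present in 0 of 5 and in 15 of 47. The spinous keratin Krt1 was present in 4 of 5 (median 107 CPM) and in 16 of 47 (4.90 CPM), and the differentiation factor Grhl3 in 5 of 5 (434 CPM) and in 11 of 47 (0.711 CPM). Grhl3 stands in both the suprabasal and the periderm marker list, so its values do not tell those layers apart. Krt1 stands in the suprabasal list only, and the rest of that list is not set beside these columns here. Krt1 and Grhl3 alone therefore do not place these columns in a layer. Across the 52 basal-like columns Spearman's rho was 0.51 for Notch1 with Notch3, 0.38 for Notch3 with Nrarp, 0.38 for Notch3 with Krt1 and 0.30 for Notch1 with Nrarp. For Notch3 with Krt10, the other keratin that sets the suprabasal-like state, it was 0.22. With the basal keratins Krt14 and Krt5 Notch3 had a rho of 0.265 and 0.24, and Hes1 with Jag2 had -0.30. These describe columns that share an unknown number of embryos and their depth, and no p was taken.

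Within the simple-keratin columns the 16 with Notch1 and the other 50 differed in a few genes. Notch3 was present in 15 of 16 (median 187 CPM) and in 38 of 50 (47.9 CPM), and Trp63 in 15 of 16 and in 34 of 50. Col3a1 was present in 7 of 16 (3.64 CPM) and in 29 of 50 (154 CPM), and its part in the Notch1 level was not tested. All 7 simple-keratin columns with Jag1 had Col3a1, against 29 of 59 without. Of these 7, all had Notch3 as well, which was present in 53 of all 66 simple-keratin columns.

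Over all 237 columns the genes most like each member were ranked by Spearman's rho among 10102 genes. The same rho within the basal-like columns stands beside some of them. Jag2 went most closely with Col17a1, a hemidesmosome collagen (0.74), Krt14 (0.74) and Hpgds (0.72), and Jag1 with Serpinb10 (0.61), Krt5 (0.58) and Endou (0.56). Within the 52 basal-like columns these fell to 0.30 for Jag2 with Col17a1 and 0.07 for Jag1 with Krt5. Notch3 went with Nebl (0.51), Aktip (0.48) and Slc44a2 (0.48), and within the basal-like columns its rho with Nebl was 0.40. Notch1 went with Pkp1, a desmosomal plaque protein, at 0.46 over all columns and 0.55 within the basal-like ones. For Notch2 the highest were Fez1 (0.43), Clmp (0.42) and Cd63 (0.42), and for Hes1 no gene passed 0.24. Dll1 and the Hey genes were present in too few columns for this ranking. Among the members, Jag2 and Dll1 had a rho of 0.58 over all columns and 0.15 within the basal-like ones.

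The 12 mesenchymal-like columns with Heyl were set beside the other 66. Notch3 was present in 11 of 12 (median 47.7 CPM) and in 28 of 66 (3.54 CPM), and Notch1 in 10 of 12 (118 CPM) and in 26 of 66 (2.31 CPM). Acta2, smooth muscle actin, was present in 10 of 12 and in 30 of 66, and Cspg4, a pericyte proteoglycan, in 10 of 12 and in 34 of 66. The other 2 mural markers did not follow them, with Pdgfrb, a receptor of pericytes and fibroblasts, present in 9 of 12 and in 55 of 66 (medians 220 and 173 CPM), and Rgs5 in 1 of 12. The dermal factor Twist1 was present in 2 of 12 and in 41 of 66, and Pdgfra in 7 of 12 and in 59 of 66. The 6 columns with Hey2 all had Notch3 and Acta2, against 33 and 34 of the other 72. Of the 7 with Hey1, 4 had Heyl, against 8 of 71. Of the 39 columns with Notch3, 11 had Heyl and 6 had Hey2, against 1 and 0 of the 39 without.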

How the data were processed

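Single cells of E14.5 mouse skin were measured by SMART-Seq HT and Nextera XT. The authors used Trimmomatic to trim, HISAT2 to align to mm10 and featureCounts with an Ensembl annotation to count. Their deposited table holds estimated counts, not normalized, with 1 column for each cell. Strand and multi-mapping settings are not given in the sources used here. Of the values above 0, 23.2% carry a fraction, and they were rounded to whole numbers, so that CPM is the rounded count over the column total. The study's table of runs, of which a shortened copy was used here, ties 16 of 237 columns to a cell, and 0 columns were left unused. Gene positions came from GENCODE vM21.

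Counts were summed per group. Ratios used a pseudocount of 1 CPM, genes at 1 CPM or more in either group, and a call at 4-fold or more, without p-values, since 1 embryo or 1 pooled table gives no replicate. The depth of each column, 2701500 counts or more, puts 10 CPM at or above 27 counts. For groups at 0 the limit is what 3 counts would be, and 95% intervals were exact Poisson or exact binomial ones. The script for ratios was tested on simulated data.

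The members and gene lists were chosen with earlier results of these data known. Genes were named as the 10 members, other pathway genes past 4-fold or at a step of the pathway, the 3 genes most like each member, and markers of cell types. The columns set beside others by presence of a member were chosen after values were seen. Alternatives changed the group level, size factors, rounding, pseudocount, filter, columns, state limits, the 10 CPM limit of presence (1 and 100 CPM) and depth (thinning to 2500000 counts), and those on thinning, haemoglobin, collagen and the columns that stood apart were added after seeing the data. Scripts ran under Python 3.11.15 (scipy 1.17.1, numpy 2.4.6, matplotlib 3.10.9, pandas 2.3.3).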

Additional observations from a re-analysis of the deposited data

Results flagged for a closer look

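The 33 columns that met the limits of no state entered no comparison, yet held counts of 9 of the 10 members above the limit that a count of 0 allows (0.0113 CPM). Their summed levels were 116 CPM for Notch1, 28.4 CPM for Notch2, 51.1 CPM for Notch3, 30.0 CPM for Jag1, 16.3 CPM for Jag2, 14.51 CPM for Dll1, 45.4 CPM for Hes1, 2.58 CPM for Hey1 and 22.2 CPM for Heyl, and Hey2 had 0 counts. Single columns held 46.7% of these Notch1 counts, 85.0% of the Dll1 and 99.4% of the Hey1 counts.

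Among the 8 suprabasal-like columns, 1 stood far above the others in Jag2, at 17.4 CPM with the next at 0.485 CPM, and 1 in Hey2, at 39.8 CPM with the others at 0. Both are measured relative to the range of the group, in 14 groups examined. Chance picks out about 1 in 20 groups of values with a spread, but that rate does not hold here, because 6 of the 8 columns had 0 counts of Jag2 and 7 of Hey2, and any single positive column then stands out.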

How the results depend on the processing

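No value is a test, so a call means only that a ratio passed 4-fold. Among 747 recomputed member ratios, 0 of those past 4-fold in the main setting changed sign. Ratios not called there could not enter this count, and how many of the 747 they make up is not given. No paired analysis was possible because the result comes from no test and the cells of 1 embryo share no replicate pairing. In WT-KCP the count of called members went from 1 to 2, by Dll1, with the mean of the columns' CPM, with size factors and with thinned columns, and it ran from 1 to 2 when single cells were left out. In suprabasal-like against basal-like columns it went from 4 to 7 with a pseudocount of 0.1 CPM. In simple-keratin against mesenchymal-like columns it went from 2 to 4 with that pseudocount and to 1 with the filter at 10 CPM, and ran from 1 to 4 when single columns were left out. Presence at 100 CPM in place of 10 CPM left 3 of 15 member and state pairs in 50% or more of the columns. All other counts of called members, and of such pairs, stayed within 1.5 times. Of the 40 presence counts themselves, 5 moved further at 1 CPM, such as Jag1 in simple-keratin (7 to 17 of 66) and mesenchymal-like columns (6 to 14 of 78), 31 at 100 CPM, such as Jag1 in basal-like columns (36 to 5 of 52), and 1 with the state limits doubled. Size factors were set by the genes counted in every column, and they shifted the log2 ratios of the genes tested. The median shift was 0.17 in WT-KCI, and 0.31 in simple-keratin and 0.43 in mesenchymal-like columns against basal-like ones. Between the last pair of states it was -0.10. Uncalled ratios near 0 changed sign with size factors, such as Hey1 in simple-keratin against basal-like columns (-0.23 to 0.60). The Hes1 ratio of suprabasal-like to basal-like columns also changed sign, when the columns that met both states were left out. Leaving out columns of under 1000000 counts changed nothing, as there were 0 of them, and leaving out the WT-KCI cell gives no value.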

Other observations

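Of the 33 columns with no state, 7 held Heyl at 10 CPM or more, and these went with genes of neural crest derivatives. Sox10, a factor of melanoblasts and Schwann cells, was present in 5 of the 7 (median 616 CPM) and in 0 of the other 26. Tubb3, a neuronal tubulin, was present in 4 of 7 and in 1 of 26, and Dct, a melanoblast gene, in 2 of 7. Notch1 was present in 6 of 7 (median 94.0 CPM) and in 10 of 26 (1.38 CPM), whereas Notch3 was present in 2 of 7 and in 20 of 26. Krt8 was present in 1 of 7 and in 26 of 26. These columns were chosen by their Heyl value, and no test was made.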
